A study of Mus musculus with 4 samples.

Results

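The 8 genes described here encode neuropeptides and peptides with local actions in the pancreatic islet: Npy, Pdyn, Penk, Cartpt, Ucn3, Edn3, Gal and Adm. They were listed by symbol, after their behaviour in these same data was known, and they are 8 of the 21594 gene symbols in the 4 count matrices. Islets came from 2-month-old mice in which both Atf4 alleles were flanked by loxP sites. In the mutants (Atf4F/F; Ins1Cre) a Cre recombinase driven from the insulin gene Ins1 removes Atf4 in beta cells, and the controls (Atf4F/F) carried the floxed alleles without Cre, so an effect of Cre itself cannot be told apart from the loss of Atf4. Each sample was a pool of several mice of both sexes, with 2 pools of mutants and 2 pools of controls, and no treatment was given. Single cells were captured in droplets, and transcripts were counted as unique molecular identifiers (UMIs), with 13706563 and 15453658 UMIs in the mutant samples and 16729747 and 17655893 UMIs in the control samples.

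Many peptide precursors of this kind are cut, and some of their products amidated, inside secretory granules. The products are released beside the main hormones and act on receptors of neighbouring islet cells, nerves or vessels. Neuropeptide Y and the opioid peptides dynorphin and enkephalin act on receptors that inhibit secretion, urocortin 3 from beta cells stimulates somatostatin release from delta cells, and endothelins and adrenomedullin are best known for their effects on blood vessels. ATF4, the transcription factor that was deleted, is made when the translation factor eIF2 is phosphorylated under stress, and it switches on genes of amino acid supply and redox defence.

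Barcodes needed 500 or more detected genes and a mitochondrial share below 20% to be kept. With called doublets also removed, 6967 cells were left (1394 and 1711 of the mutants, 1994 and 1868 of the controls). Of the distinct barcode sequences that passed the 2 cuts, counted before doublets were removed, 162 of 6831 occurred in more than 1 library. A cell was called beta-like, alpha-like, delta-like or PP-like where insulin, glucagon, somatostatin or pancreatic polypeptide mRNA made up at least 90% of the UMIs of these 4 hormones and the 4 together at least 5% of all UMIs. Of 11 beta cell markers 10 were highest in the beta-like cells, of 8 alpha cell markers 7 in the alpha-like cells, of 7 delta cell markers 6 in the delta-like cells, and of 6 PP cell markers 4 in the PP-like cells. Each list includes the hormone that defines its class, so these counts were partly fixed in advance. The beta-like class held 808 and 918 mutant cells and 1357 and 1251 control cells, the alpha-like class 121 and 228 mutant and 146 and 146 control cells, the delta-like class 28 and 54 mutant and 31 and 27 control cells, and the PP-like class 23 and 12 mutant and 28 and 5 control cells. The level of a gene in a class is given as CPM, its UMIs per 1e6 UMIs of the summed cells. In the beta-like sums Atf4 stood at 2.81 CPM in mutant 1 and 118 CPM in mutant 2, whereas the controls had 335 and 366 CPM, so mutant 2 retained more Atf4 mRNA than mutant 1. The clusters led by endothelial, macrophage and stellate cell genes gave classes only from cells with less than 5% hormone UMIs. Set aside were 1219 cells with mixed hormones, 317 cells of these clusters with more hormone RNA, and 20 further cells with less than 5% hormone UMIs.

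Promoter windows from RefSeq, GRCm38.p6, are shown for the 3 genes with the most counts in beta-like cells and for the 1 gene in which a searched motif was found. Each runs from 250 bases before to 50 bases after an annotated start, 5′ to 3′ on the gene's strand. The windows are chr6:49822460-49822759 (plus strand) for Npy, chr2:129699889-129700188 (minus strand) for the upstream start of Pdyn, chr13:3945300-3945599 (minus strand) for Ucn3 and chr13:99900634-99900933 (minus strand) for Cartpt. Capitals mark the motif match. In the GENCODE annotation of GRCm38 the genes themselves span chr6:49822710-49829507 (plus strand) for Npy, chr2:129686565-129699844 (minus) for Pdyn, chr13:3940688-3945349 (minus) for Ucn3, chr2:174760619-174784042 (plus) for Edn3 and chr4:4133531-4138819 (minus) for Penk.
Npy promoter: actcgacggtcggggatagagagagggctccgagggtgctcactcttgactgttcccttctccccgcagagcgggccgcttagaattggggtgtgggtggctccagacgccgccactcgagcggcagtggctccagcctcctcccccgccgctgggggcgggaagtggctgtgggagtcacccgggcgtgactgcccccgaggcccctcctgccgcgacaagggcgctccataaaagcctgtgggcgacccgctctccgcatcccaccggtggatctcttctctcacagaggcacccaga
Pdyn promoter: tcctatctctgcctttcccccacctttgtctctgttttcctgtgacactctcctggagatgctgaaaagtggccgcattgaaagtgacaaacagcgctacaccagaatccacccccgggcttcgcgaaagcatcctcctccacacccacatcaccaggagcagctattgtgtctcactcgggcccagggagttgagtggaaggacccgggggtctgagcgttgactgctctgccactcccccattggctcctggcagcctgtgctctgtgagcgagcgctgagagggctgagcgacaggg
Ucn3 promoter: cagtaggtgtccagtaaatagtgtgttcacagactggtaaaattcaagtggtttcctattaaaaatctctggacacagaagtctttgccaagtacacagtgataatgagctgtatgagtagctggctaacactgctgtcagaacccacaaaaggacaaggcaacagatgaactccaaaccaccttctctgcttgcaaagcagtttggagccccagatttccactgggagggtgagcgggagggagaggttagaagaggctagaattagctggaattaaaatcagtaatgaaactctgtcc
Cartpt promoter: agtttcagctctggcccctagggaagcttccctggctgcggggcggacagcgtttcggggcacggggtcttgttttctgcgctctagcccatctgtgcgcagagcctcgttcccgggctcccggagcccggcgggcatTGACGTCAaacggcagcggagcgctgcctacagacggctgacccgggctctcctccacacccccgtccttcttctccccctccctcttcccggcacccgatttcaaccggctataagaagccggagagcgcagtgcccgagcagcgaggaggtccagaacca
The C/EBP-ATF core TGATGNAA was searched on both strands and was in none of the 8 windows of the 7 genes that had one, Pdyn having 2 windows; it is present in 3.97% of 32851 mouse promoters. The cyclic AMP response element TGACGTCA, a palindrome that does not overlap the other motif, is in 1.79% of them and among these genes was found in Cartpt only, 112 bases before the start. A missing match says only that these letters are not in this window.

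The genes were expressed by different cells. Beta-like cells held 87.7% of 2306 Npy UMIs, 83.6% of 5892 Pdyn UMIs and 86.8% of 54781 Ucn3 UMIs. Such shares also follow class size. Beta-like cells had 43394707 UMIs of all genes, against 10097987 in mixed, 3334812 in alpha-like and 607023 in delta-like cells. As mean levels of the 4 samples, Npy was at 43.1 CPM in beta-like and 2.85 CPM in delta-like cells, and Ucn3 at 1084 and 10.8 CPM. Pdyn was closer between these classes, at 122 and 78.0 CPM. Edn3 was an alpha-like transcript, with 53.2% of 929 UMIs in the alpha-like cells and a further 34.7% in cells of mixed hormones. Penk counts lay mostly in the class named stellate-like, at 68.4% of 117 UMIs. A further 22.2% lay in cells of non-endocrine clusters with hormone RNA. The stellate-like class had only 8 cells. Of 8 stellate markers 5 were highest there (Col1a1, Col1a2, Col3a1, Pdgfrb and Dcn), while Rgs5, Acta2 and Ndufa4l2 were not. Whether these cells were stellate cells or other fibroblasts was not tested. Cartpt, Adm and Gal were close to the limit of detection, with 44, 16 and 1 UMIs in all kept cells.

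**Figure D1:**
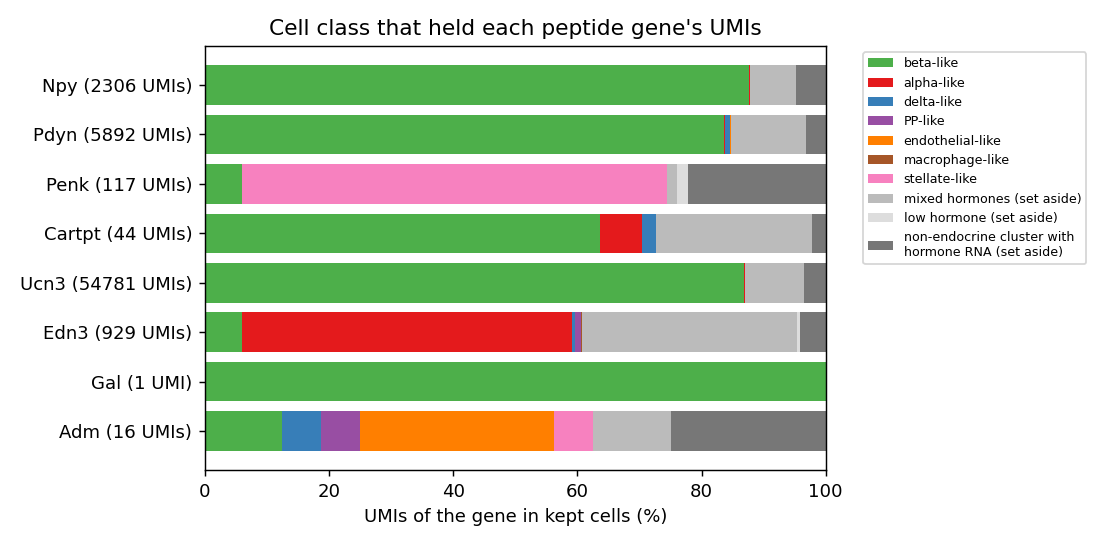
Share of each gene's UMIs (x axis, percent of UMIs in all 6967 kept cells) held by each cell class (colours; grey, cells set aside), 1 bar per gene with its total in brackets. The bars of Npy, Pdyn and Ucn3 are mostly beta-like, that of Edn3 is mostly alpha-like or mixed, and that of Penk is mostly stellate-like.

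Npy, the precursor of neuropeptide Y, was a transcript of a small share of beta-like cells and was lower in the mutants. Over the summed beta-like cells mutant 1 had 9.50 CPM and mutant 2 had 18.6 CPM, whereas control 1 had 83.2 CPM and control 2 had 61.0 CPM. Both mutants lay below both controls, and the fitted log2 change was -2.48 with a standard error of 0.305 (n = 2 and 2). Without mutant 2, the library that kept Atf4, the change was -3.13, and without mutant 1 it was -2.04. Without control 1 it was -2.19, and without control 2 it was -2.72. The same contrast was used to choose the genes, so the value describes these libraries and is given without a test. Of the cells set aside, those of mixed hormones held 168 Npy UMIs and those of non-endocrine clusters with hormone RNA 112. In the other endocrine classes Npy was rare. Alpha-like cells gave 0 and 2 UMIs in the mutants, against 1 and 0 UMIs in the controls. Delta-like cells gave 1 UMI, in control 2, and PP-like cells none, where a count of 0 allows up to 21.3 CPM in mutant 1 and 79.3 CPM in control 2.

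Fewer mutant than control cells carried Npy. At least 1 Npy UMI was found in 2.85% and 2.83% of beta-like cells of the mutants (exact 95% intervals 1.81 to 4.24% and 1.86 to 4.12%), against 9.14% and 9.99% in the controls (7.66 to 10.8% and 8.39 to 11.8%). These intervals, like the others below, cover counting error only. The corresponding share in alpha-like cells, taken here as the background, was 0 and 0.877% in the mutants, against 0.685 and 0% in the controls, at median depths of 4839 and 3688 UMIs in the mutants, against 3830 and 4451 UMIs in the controls. Mutant beta-like cells were sequenced more deeply than control ones, at medians of 8004 and 8015 UMIs in the mutants, against 5990 and 6357 UMIs in the controls. With every cell thinned to 2000 UMIs, which leaves out 59 and 59 mutant and 125 and 100 control cells, the shares were 1.47% and 0.815% in the mutants, against 5.44% and 5.47% in the controls.

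Deep beta-like cells, those above 8000 UMIs, showed the same order: 16 of 404 and 23 of 459 mutant cells had Npy, against 87 of 532 and 77 of 544 control cells. At least 10 Npy counts were found in 3 and 6 of these mutant cells and in 33 and 20 of the control cells, and the highest cell had 27 and 54 counts in the mutants and 71 and 115 counts in the controls. Npy was present at high level in a few cells of every sample, and such cells were fewer in both mutants.

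Pdyn encodes prodynorphin, the precursor of ligands of the kappa opioid receptor, and differed in the opposite direction. Beta-like cells of mutant 1 had 215 CPM and those of mutant 2 had 170 CPM, whereas control 1 had 33.9 CPM and control 2 had 70.0 CPM. Both mutants were above both controls, and the log2 change was 1.77 with a standard error of 0.269 (n = 2 and 2), again without a test. It was 1.86 without mutant 2 and 1.65 without mutant 1. The controls moved it more, to 1.37 without control 1 and to 2.33 without control 2. At least 1 Pdyn UMI was found in 31.8% and 26.6% of mutant beta-like cells, against 12.2% and 19.3% of control ones, and after thinning to 2000 UMIs in 15.4% and 12.9% of mutant cells, against 4.22% and 8.34% of control cells. The alpha-like share was 6.61% and 0.439% in the mutants and 0% in both controls, of 121, 228, 146 and 146 cells, so that a share of up to 2.05% in each control is allowed by a count of 0.

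Pdyn was more widely spread than Npy but was still uneven. Of beta-like cells above 8000 UMIs, 44.8% and 37.9% of mutant cells and 21.4% and 29.0% of control cells had a count, and at least 10 counts were found in 48 and 36 mutant cells against 4 and 18 control cells. The share of cells with 1 or 2 Pdyn counts was 17.3% and 14.8% in the mutants, against 14.3% and 15.8% in the controls, so the groups overlapped there and separated among cells with 3 counts or more. The highest cell had 75 and 99 counts in the mutants, against 28 and 51 counts in the controls. The 10% of cells with the most counts held 72.0% and 73.9% of Pdyn UMIs in the mutants, against 78.6% and 76.9% in the controls.

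**Figure D2:**
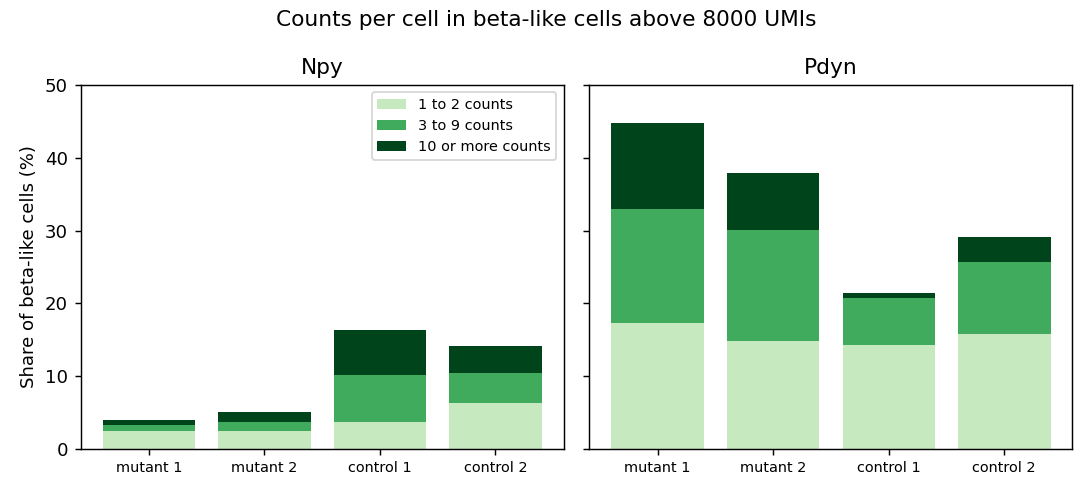
Share of beta-like cells above 8000 UMIs (y axis, percent) with 1 to 2, 3 to 9 and 10 or more counts of Npy (left) and Pdyn (right), 1 bar per sample, cells without a count not drawn. The Npy bars of both mutants are lower than those of both controls, while the Pdyn bars are higher, with like shares of cells at 1 to 2 counts in all 4 samples.

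The same cells could carry both transcripts. Among the deep beta-like cells, 7 and 15 mutant cells and 34 and 40 control cells had both, where independent occurrence would give 7.17 and 8.72 in the mutants, against 18.6 and 22.4 in the controls. Pdyn was counted in 43.8% and 65.2% of the mutant cells with Npy, against 39.1% and 52.0% of the control cells with Npy. In the cells without Npy it was counted in 44.9% and 36.5% of the mutant cells, against 17.98% and 25.3% of the control cells. Co-occurrence exceeded independence in mutant 2 and both controls and not in mutant 1, and depth differs between cells within each sample, so these counts are a description.

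Ucn3, the precursor of urocortin 3 and a mark of mature mouse beta cells, carried the most UMIs of the 8 genes. Its beta-like level was 947 and 1047 CPM in the mutants, against 1087 and 1254 CPM in the controls. The mutants lay below the controls without overlap, by a log2 change of -0.35 with a standard error of 0.122 (n = 2 and 2), given as a description. At least 1 UMI was found in 90.2% and 89.4% of mutant beta-like cells and in 88.6% and 92.2% of control ones, which overlapped. After thinning to 2000 UMIs the shares did not overlap, at 73.2% and 75.0% in the mutants, against 78.6% and 82.9% in the controls. After thinning to 5000 UMIs they overlapped again, at 96.2% and 94.0% in the mutants, against 95.03% and 97.3% in the controls. Unlike Pdyn it was even between cells, with 25.4% and 28.6% of UMIs in the top 10% of deep mutant cells and 28.4% and 26.5% in that of control cells.

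**Figure D3:**
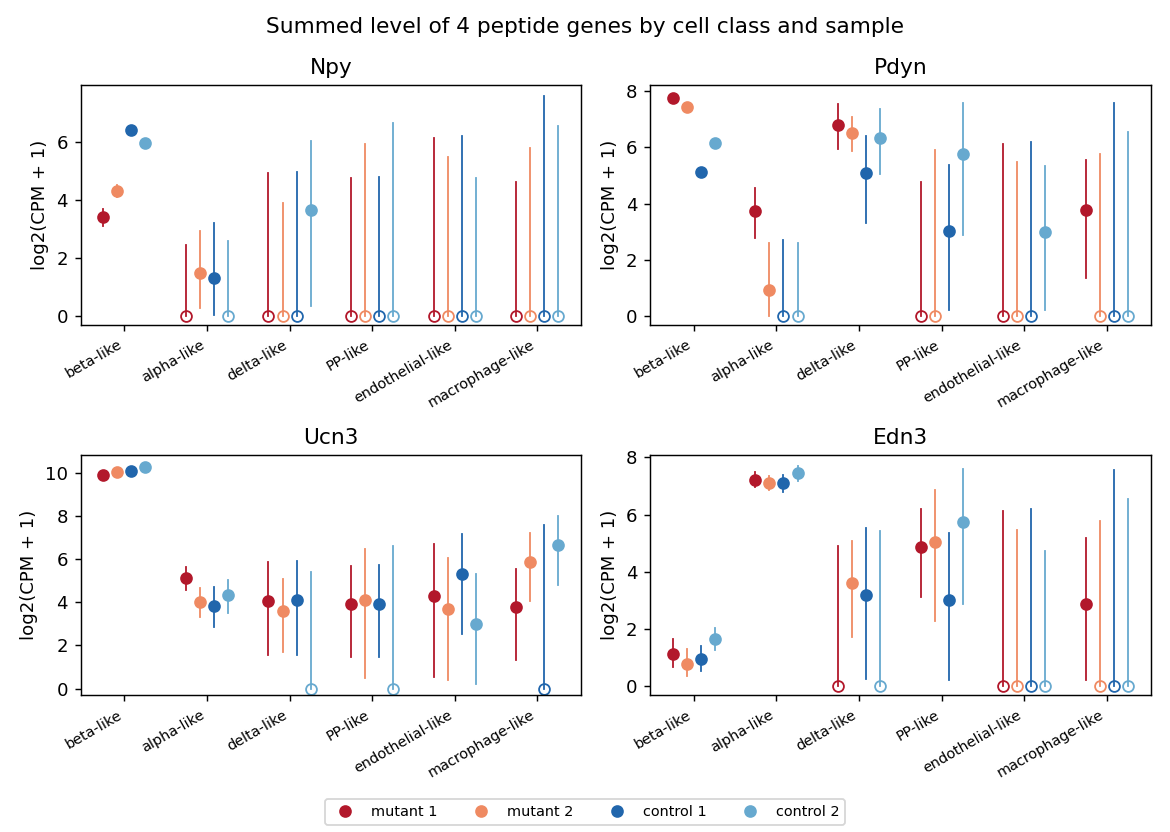
Level of 4 peptide genes, as log2(CPM + 1) of summed counts (y axis), in each cell class (x axis) and sample (colours; open symbols, no count), with exact Poisson 95% intervals of the sums as lines. Npy and Ucn3 are highest in beta-like cells, Pdyn in beta-like and delta-like cells, and Edn3 in alpha-like cells, and of the 4 only Npy and Pdyn show a wide gap between mutants and controls in beta-like cells.

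Edn3 encodes endothelin 3, a peptide ligand of the endothelin B receptor, and marked the alpha-like cells. Its alpha-like level was 149 and 137 CPM in the mutants, against 137 and 174 CPM in the controls. The groups overlapped, and the log2 change was -0.15 with a standard error of 0.186 (adjusted p = 0.874, edgeR quasi-likelihood test over 8376 genes). A UMI was found in 43.8% and 36.4% of mutant alpha-like cells, against 38.4% and 39.0% of control ones. In beta-like cells its level was 1.19 and 0.719 CPM in the mutants and 0.922 and 2.17 CPM in the controls. Edn3 in beta-like cells came to 0.798% and 0.524% of its alpha-like level in the mutants, against 0.673% and 1.25% in the controls. The glucagon mRNA Gcg, whose source is the alpha cell, came to 0.334% and 0.438% in the mutants, against 0.452% and 0.546% in the controls. PP-like cells held 4 and 2 Edn3 UMIs in the mutants, against 1 and 2 in the controls. As levels these were 28.4 and 32.1 CPM in the mutants, against 7.17 and 52.8 CPM in the controls.

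Ucn3 in alpha-like cells was at 34.2 and 15.4 CPM in the mutants, against 13.4 and 19.0 CPM in the controls. These levels overlapped between the groups, with a log2 change of 0.52 and a standard error of 0.431 (adjusted p = 0.771, edgeR). They amounted to 3.61% and 1.47% of the beta-like level in the mutants, against 1.23% and 1.52% in the controls, while insulin mRNA in the same cells stood at 2.11% and 1.52% of its beta-like level in the mutants, against 2.46% and 2.30% in the controls. In the alpha-like contrast 0 of the 2 tested members passed at an adjusted p of 0.05, against 0.263% of all 8376 tested genes. Likewise 0 of the 2 had an unadjusted p under 0.05, and DESeq2 and limma-voom called 0.

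Pdyn was also counted in delta-like cells, the somatostatin-producing cells of the islet. Its level there was 111 and 88.9 CPM in the mutants (14 and 24 UMIs), against 32.6 and 79.8 CPM in the controls (4 and 7 UMIs). That was 51.5% and 52.2% of the beta-like level in the mutants, against 96.2% and 114% in the controls. In the same delta-like sums insulin mRNA was 2.18% and 1.33% of its beta-like level in the mutants, against 2.38% and 2.83% in the controls, and Ucn3 was 1.67% and 1.06% of its beta-like level in the mutants, against 1.50% and 0% in the controls. The Pdyn share of the delta-like cells was 21.4% and 20.4% in the mutants, against 9.68% and 7.41% in the controls. Both mutant levels were above both control levels, yet the log2 change of 0.85 with a standard error of 0.559 did not pass (adjusted p = 0.834, edgeR over 2163 genes). In that contrast 0 of 1 tested members passed, against 0.0925% of all genes, and the member did not reach an unadjusted p of 0.05 or a call by DESeq2 or limma-voom. The call depended on how the class was drawn. With delta-like cells taken as clusters, a setting added after the data were seen, insulin made up 3.85% and 2.52% of UMIs in the mutants, against 1.53% and 4.89% in the controls, and Pdyn gave a log2 change of 2.28 (adjusted p = 0.0101, edgeR). With somatostatin at 95% or more of hormone UMIs, which leaves 13 and 26 mutant and 10 and 5 control cells, the change was -0.09 (adjusted p = 0.989, edgeR), with 12 and 13 Pdyn UMIs in the mutants, against 2 and 7 in the controls. In PP-like cells no member had enough counts for the test, where 0.123% of 1620 genes passed.

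Penk, the enkephalin precursor, was found mainly in cells of a non-endocrine cluster. A cluster of 22 cells led by fibroblast collagens, 16 from mutant 1 and 6 from mutant 2 and none from the controls, held 105 of the 117 Penk UMIs. The counts were 30 UMIs in 9 cells of mutant 1 and 75 UMIs in 4 cells of mutant 2, of which 1 cell had 37. With no control cell in this cluster, no level could be set against them. Which control cells join it depends on the clustering. With cells kept from 200 genes upwards the stellate-like cluster held 32 and 29 mutant and 9 and 8 control cells, and Penk had 32 and 75 UMIs in the mutants, against 0 and 0 in the controls. The few control cells allow a level of up to 458.5 and 437 CPM there (exact Poisson), beside 315 and 695.5 CPM in the mutants. Such limits treat UMIs as independent, whereas the 75 UMIs of mutant 2 came from 4 cells. No difference is therefore read for either mutant. With the 8 genes left in the clustering a wider stellate-like cluster held 31 and 78 mutant and 22 and 66 control cells. Penk there had 30 and 75 UMIs in the mutants, against 0 and 0 in the controls. By hormone UMIs alone, 78.2% of the barcodes of this wider cluster were beta-like. The share was 52.6% with cells kept from 200 genes upwards and 63.6% for the cluster of 22 cells. How the beta-like barcodes divided between the samples was not tested, so the control counts of 0 set no level for stellate-like cells. Both alternative settings were read for Penk after the data were seen, and in each the 75 UMIs of mutant 2 came from 4 cells. In beta-like cells Penk had 2 and 1 UMIs in the mutants and 2 and 2 UMIs in the controls. The higher total of Penk in the mutant libraries, 36 and 77 UMIs over all barcodes against 3 and 3 in the controls, holds these 105 UMIs.

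Cartpt, whose product is the CART peptide, had 7 and 2 UMIs in mutant beta-like cells and 12 and 7 in control ones. Its level was 0.755 and 0.205 CPM in the mutants, against 1.006 and 0.562 CPM in the controls. The groups overlapped in CPM. Adm, the adrenomedullin precursor, had 0 and 0 UMIs in endothelial-like cells of the mutants and 2 and 3 in those of the controls, among 25 and 32 mutant and 24 and 43 control cells, and 2 and 0 UMIs in mutant beta-like cells against 0 and 0 in control ones. Gal, the galanin precursor, had 1 UMI in the whole data set, in a beta-like cell of mutant 1. For these genes a difference was not detectable at this depth.

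In the beta-like fit 4 of the 8 genes had enough counts to be tested. Over all 13465 tested genes 0.557% passed at an adjusted p of 0.05 in edgeR, 0.401% higher and 0.156% lower in the mutants. The 8 genes were picked with this contrast known, so no call is given for them and nothing is read from these shares.

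The levels of markers of other cells in the beta-like sums are given here as a description. Of 10 genes of other islet cells 9 had a lower fitted level in the mutants and 0 passed, and 6 had an unadjusted p under 0.05, 1 of them higher and 5 lower. DESeq2 called 2 and limma-voom 1. Over all 13465 genes of this fit 14.7% had an unadjusted p under 0.05, while DESeq2 called 1.88% and limma-voom 0.483%. The median of the 10 genes' log2 changes was -0.65, beside 0.01 over all tested genes. Ppy, the pancreatic polypeptide hormone, was at 299.5 and 204 CPM in the mutants and 398 and 510 CPM in the controls (log2 change -0.98, adjusted p = 0.0521, edgeR), and the retinol carrier Rbp4, a delta cell marker, at 26.3 and 49.3 CPM in the mutants, against 78.8 and 92.5 CPM in the controls (log2 change -1.29, adjusted p = 0.0815, edgeR). Of 13 marker lists of other cells, the summed level of 4 was lower in both mutants than in both controls, that of 2 was higher in both mutants, and 7 overlapped. Separation of 2 pools from 2 has an exact two-sided permutation p of 0.333. The share of all genes that separate was not computed, so nothing is read from this count. The summed level of 10 acinar markers, none of them at 0, was 32.6 and 48.8 CPM in the mutants and 127 and 238 CPM in the controls. That of 10 macrophage markers was 65.7 and 97.9 CPM in the mutants, with 1 marker at 0 in mutant 1, against 129.8 and 134 CPM in the controls. The lists of PP and B cell markers were the other two that were lower. That of 7 duct markers, none of them at 0, went the other way, with 520.4 and 470.5 CPM in the mutants, against 393 and 420.5 CPM in the controls, as did the list of epsilon cell markers. That of 8 alpha cell markers was at 2420 and 2477 CPM in the mutants, against 2111 and 2470 CPM in the controls. In beta-like cells with the other hormones under 1% of counts the log2 change was -2.53 for Npy and 1.75 for Pdyn. The part of RNA of other cells in the results was not tested.

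Mutant 2 kept Atf4 counts in some cells, which allowed a description within 1 library. Of its beta-like cells above 8000 UMIs, 134 had at least 3 Atf4 counts, 92 had 1 or 2, and 233 had none. Pdyn was at 107 CPM in the cells with at least 3 Atf4 counts (95% Poisson interval 94.8 to 120), at 113 CPM in those with 1 or 2, and at 270 CPM in those with none (254 to 287). The share of cells with Pdyn did not follow the same order, at 38.8% of those with at least 3 Atf4 counts (exact 95% interval 30.5 to 47.6%), 25% of those with 1 or 2, and 42.5% of those with none (36.1 to 49.1%), so the intervals of the first and last class overlapped. Such shares depend on depth, and the median depth of these classes was 18095.5, 12194.5 and 15159 UMIs in that order. In mutant 1 the 391 cells without Atf4 had 243 CPM of Pdyn. Npy was at 41.9 CPM in the mutant 2 cells with at least 3 Atf4 counts (34.4 to 50.6), at 3.07 CPM in those with 1 or 2, and at 16.0 CPM in those with none (12.3 to 20.5). Only 9, 2 and 12 cells carried Npy in those classes, in that order, so its levels rest on few cells. Ucn3 of mutant 2 was at 1062, 932 and 1210 CPM in the same order, highest in the cells without Atf4. Between control cells with 1 or 2 and with at least 3 Atf4 counts, Npy went from 31.3 to 117 CPM in control 1. In control 2 it went from 132 to 61.1 CPM, the other way. The cells with retained Atf4 were not spread evenly over the sexes in the pool. Cells were taken as male where a Y-linked gene but not Xist was counted, and as female in the converse case. Atf4 of mutant 2 was at 189 CPM in male and at 9.79 CPM in female beta-like cells. The Atf4 count and the mouse of origin cannot be told apart here.

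**Figure D4:**
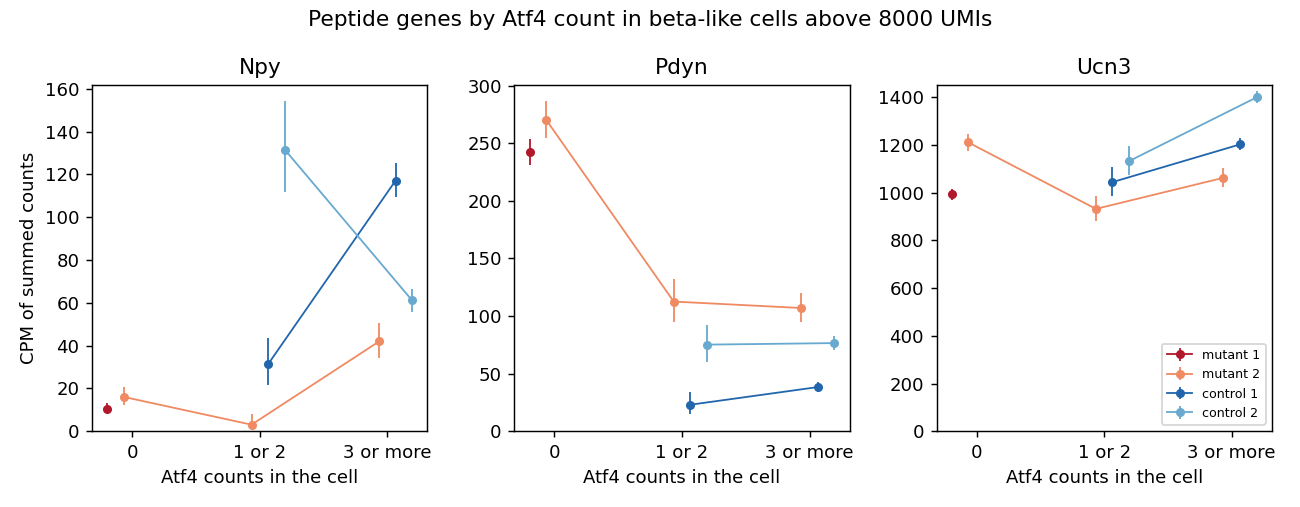
Level of Npy, Pdyn and Ucn3 (y axes, CPM of summed counts) in beta-like cells above 8000 UMIs grouped by their Atf4 count (x axis), 1 colour per sample, bars showing exact Poisson 95% intervals, groups under 20 cells left out. In mutant 2 Pdyn is at 270 CPM in cells without Atf4 and at 107 CPM in cells with 3 or more counts, while both controls stay at or below 76.5 CPM.

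The sex of the cell split the pools further. In mutant 1 Pdyn was at 88.3 CPM in female and 400.2 CPM in male beta-like cells, and in mutant 2 at 289 CPM in female and 138 CPM in male ones. In the controls it was at 23.8 CPM in female and 46.9 CPM in male cells of control 1, and at 51.2 and 87.1 CPM in those of control 2. Within female cells and within male cells both mutants stayed above both controls. Npy was at 9.22 and 15.9 CPM in female mutant cells, against 72.0 and 87.8 CPM in female control cells. In male cells it was at 9.01 and 25.7 CPM in the mutants, against 69.9 and 25.3 CPM in the controls, which overlapped, male cells of control 2 being low. The log2 change of Npy was -2.82 in female cells and -1.48 in male cells, and that of Pdyn 2.24 and 1.91, and whether the sexes differ was not tested. Ucn3 was at 1047 and 1298 CPM in female mutant cells, against 1099 and 1347 CPM in female control cells, and at 880 and 972 CPM in male mutant cells, against 1147 and 1249 CPM in male control cells. Each sex in a pool stands for few mice, so sex and mouse cannot be told apart.

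**Figure D5:**
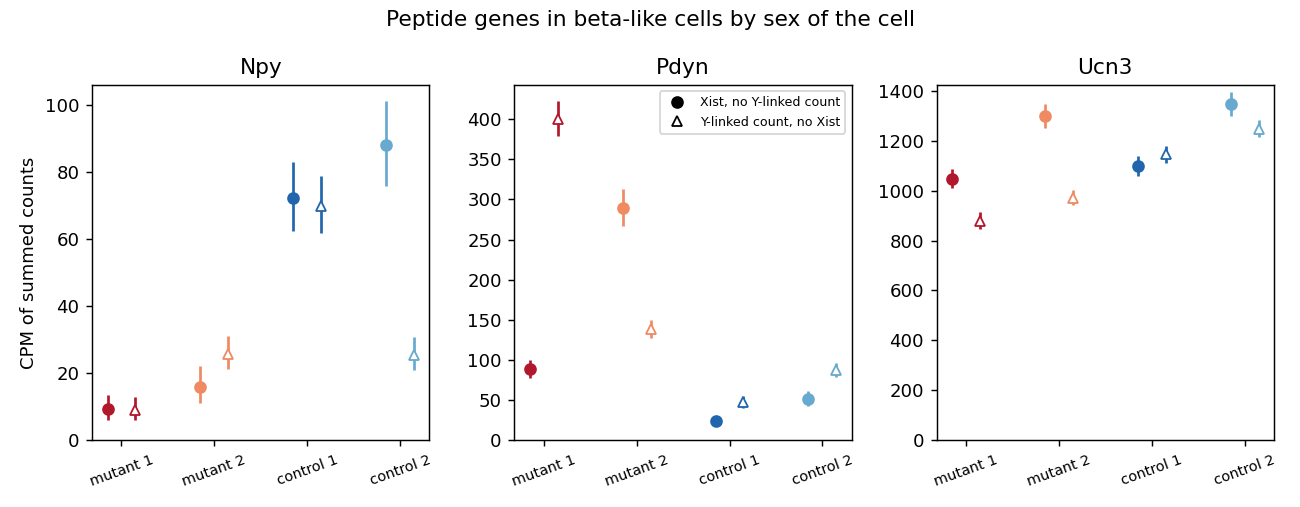
Level of Npy, Pdyn and Ucn3 (y axes, CPM of summed counts) in female (filled circles) and male (open triangles) beta-like cells of each sample (x axis), with exact Poisson 95% intervals. Pdyn is above both controls in either sex of both mutants, Npy of male control 2 cells lies at the level of male mutant 2 cells, and Ucn3 overlaps between the groups in female cells.

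Receptors, processing enzymes and other peptide precursors were then read from the same beta-like fit. Of 23 receptors and receptor partners of the 8 peptides 8 had enough counts in beta-like cells and 0 passed, while 1 higher and 1 lower gene had an unadjusted p under 0.05, against 14.7% of all 13465 genes, and DESeq2 and limma-voom called 0, against 1.88% and 0.483% of all genes. Their median log2 change was 0.05, beside 0.01 over all genes. The lowest p values belonged to the endothelin receptor Ednra, at 1.08 and 1.13 CPM in the mutants and 0.335 and 0.0803 CPM in the controls (log2 change 2.24, adjusted p = 0.187, edgeR), and to Ramp1, a partner of calcitonin-type receptors, at 4.75 and 6.88 CPM in the mutants, against 8.72 and 9.79 CPM in the controls (log2 change -0.79, adjusted p = 0.199, edgeR).

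Of 21 prohormone processing and granule genes all 21 were tested and 0 passed in edgeR. An unadjusted p under 0.05 was reached by 3 higher and 4 lower genes, against 14.7% of all genes. DESeq2 called 4, against 1.88% of all genes, and limma-voom 0, and the median log2 change was -0.01. Pcsk1, the convertase that opens prohormones at paired basic residues, was at 266 and 241 CPM in the mutants, against 146 and 165 CPM in the controls (log2 change 0.57, adjusted p = 0.0763, edgeR). Scg5, the chaperone of the convertase PC2, was at 1032 and 782 CPM in the mutants, against 1188 and 1293 CPM in the controls (log2 change -0.58, adjusted p = 0.0986, edgeR). For either gene the groups did not overlap. Both were named for the lowest p of the list, and the share of all genes that separate was not computed. Nothing is therefore read from the lack of overlap.

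Of 53 other neuropeptide and regulatory peptide precursors 10 were tested and 0 passed. An unadjusted p under 0.05 was reached by 2 higher genes and 1 lower gene, against 14.7% of all genes. DESeq2 and limma-voom called 0, and the median log2 change was -0.20. Nucb2, the nesfatin precursor, was at 159.6 and 127 CPM in the mutants, against 81.4 and 106 CPM in the controls (log2 change 0.48, adjusted p = 0.188, edgeR). Iapp, the amylin precursor, was at 52070 and 54110 CPM in the mutants, against 55110 and 58160 CPM in the controls (log2 change -0.22, adjusted p = 0.264, edgeR).

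Over the 20 sums of at least 20 cells, each a class in a sample, the genes most like each peptide were sought among 9892 genes by Pearson correlation of log2(CPM + 1), which mainly follows the class. Npy was nearest to Ins1 (0.883), Ins2 (0.863) and the cation channel Trpm5 (0.86). Pdyn was nearest to Sntg1 (0.885), Hadh (0.875) and Iapp (0.872). Ucn3 was nearest to Mtm1 (0.923), Ins2 (0.908) and Cox6a2 (0.895), and Edn3 to Pdk4 (0.911), Sv2b (0.872) and Eef1a2 (0.865). The sums of 1 sample share a library, and the other 4 peptides had too few counts for the comparison to be read.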

How the data were processed

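UMI counts per gene symbol and barcode were used as deposited by the authors. The submitters' processing notes name the build mm10 and Seurat; how UMIs were counted is not given in the sources used here. Scrublet (expected rate 6%) marked 28 barcodes, 9, 3, 3 and 13 per sample, which were removed; so few calls mean that doublets remain. Cells were clustered with scanpy 1.11.5 without the 8 genes, only to take out non-endocrine clusters. The class names are rebuilt. Of all cells, 962 had a leading hormone between 85 and 95%. Levels are UMIs per 1e6 UMIs of a summed class, not TMM-scaled. Sums were fitted with edgeR 4.0.16 (quasi-likelihood test, filterByExpr, TMM, R 4.3.3) over 2 pools per group, adjusted by Benjamini-Hochberg across every gene tested, after tests on simulated data. p-values measure the spread between pools. Confidence levels are 95%, and the floor is 3 counts. DESeq2 1.42.0 and limma-voom 3.58.1 were alternatives. The members and lists were chosen with earlier results of these data known. Besides the 8 genes, the text names every listed gene past the threshold, the 2 of lowest p per list, and 3 genes of nearest pattern. Per the labels' protocols, human K562 cells were added, and tdT+ and tdT- beta cells shared a run; neither was analysed here.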

Additional observations from a re-analysis of the deposited data

How the results depend on the processing

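Npy stayed lower and Pdyn higher in mutant beta-like cells under all 22 alternatives, with log2 changes of -3.13 to -1.48 and of 1.37 to 2.33. Npy reached only -1.48 in cells with Y-linked RNA. Ucn3 ranged from -0.51 to -0.17 and Edn3 from -1.27 to -0.13. In alpha-like cells Ucn3 ranged from -0.09 to 1.02 with a sample left out, reversed without mutant 1, and reversed to -0.36 with types from clusters, and in delta-like cells Pdyn reversed to -0.09 at a purity of 95% and was called, at 2.28, with types from clusters. The cause was not tested. Thinned to 2000 UMIs, the mutant minus control shares of beta-like cells were -4.31 percentage points for Npy, 7.85 for Pdyn and -6.66 for Ucn3, beside -6.73, 13.5 and -0.55 unthinned, and that of Ucn3 was -1.04 thinned to 5000 UMIs.

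Counts of called genes over the whole fits moved more. Beta-like calls (75, 54 higher and 21 lower) came to 167 with library totals (142 higher and 25 lower, with the median of all genes at 0.138), 253 with DESeq2 (149 and 104), 141 without the filter on low counts, 144 in cells with Xist (69 and 75), 12 in cells with Y-linked RNA, 34 with types from clusters and 32 to 268 with a sample left out, the lowest without mutant 1. Alpha-like calls (22) came to 8 with DESeq2, 80 without the filter, 14 from 200 genes per cell, 12 without the highest doublet scores, 12 and 8 at purities of 80% and 95%, and 42 to 68 with a sample left out. Delta-like calls (2) came to 1 with DESeq2, limma-voom, the doublet scores or 95% purity, 13 without the filter, 4 from 200 genes, 6 from clusters and 11 to 16 with a sample left out. PP-like calls (2) came to 1 with library totals, 0 with DESeq2, limma-voom or 95% purity, 5 without the filter, 15 from 1000 genes, 4 at 80% and 6 to 12 with a sample left out. The 10 genes of other islet cells had 2 calls with DESeq2, without the filter or above 8000 UMIs, 1 with limma-voom or in cells with Xist, and 1 to 4 with a sample left out, and the processing genes had 4 with DESeq2.

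Replicate numbers were not taken to pair the samples. Over all genes, deviations of same-numbered samples correlated at -0.051, -0.011, -0.043 and 0.039 in beta-, alpha-, delta- and PP-like sums. A pairing that affects only part of the genes cannot be seen in these values. With the replicate block by title the calls were 100, 12, 0 and 13 in that order and 2 of the other islet genes, and with the block crossed by library name 16, 74, 1 and 0. Npy and Pdyn had log2 changes of -2.50 and 1.84 under the first block and -2.52 and 1.84 under the second. With 1 sample left out, the lone sample is assumed to vary like the other group.

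Settings for purity, clusters and depth above 8000 UMIs were added after seeing the data. Counts under 20 UMIs, as for Adm, Gal and Pdyn of delta-like controls, limit what can be seen. With 2 pools per group, a single value cannot go below an exact two-sided permutation p of 0.333, free RNA and doublets were not removed, and mice within a pool were not separated.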
